A study of Mus musculus with 15 samples.

Results

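The genes described here carry peptides from the proteasome to the cell surface on major histocompatibility complex (MHC) class I molecules, together with the ubiquitin-like gene Ubd. The 9 members were Psmb8, Psmb9, Psmb10, Ubd, Tap1, Tap2, Tapbp, Erap1 and B2m, out of 19938 genes measured. A gene was measured by the probe sets assigned to it alone. Each of the 9 members had 1 such probe set, so no choice between probe sets was needed. A further 2 probe sets named Tapbp together with Rps3a1 and were not used. RNA levels were measured on 15 arrays of ventral prostate epithelial cells from FVB mice, in 5 groups of 3. The control group was untransduced primary culture. The other groups were stable cell lines transformed with c-myc (Myc), neuT (NeuT), ha-ras (Ras) or v-src (Src), oncogenes that encode a transcription factor, a receptor tyrosine kinase, a small GTPase and a cytoplasmic tyrosine kinase. The control cells were kept in primary culture medium and moved to DMEM with 10% FBS on the night before harvest, whereas the lines were grown in DMEM with 10% FBS throughout. No group received a drug or a cytokine according to the labels. The series' design text counts 3 lines for each oncogene, while the sample labels give only a replicate number and do not say whether the controls came from separate animals. P-values therefore reflect how these arrays vary, and part of that may be technical. Transduction, establishment as a line and culture history cannot be told apart in any comparison with control.

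In this pathway the proteasome cuts proteins into peptides. Interferon gamma induces 3 catalytic subunits, Psmb8, Psmb9 and Psmb10, which replace the constitutive Psmb5, Psmb6 and Psmb7 to form the immunoproteasome. The TAP transporter pumps the peptides into the endoplasmic reticulum, Erap1 trims them, tapasin (Tapbp) helps to load them, and B2m is the light chain that every class I heavy chain needs to reach the surface. Ubd encodes FAT10, a ubiquitin-like protein that marks proteins for the proteasome and is induced by interferon gamma and tumour necrosis factor. Psmb9, Tap1, Psmb8 and Tap2 are consecutive protein-coding genes on chromosome 17 in the RefSeq annotation, inside the MHC.

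The 4 sequences below, from RefSeq on GRCm38.p6, are the DNA before the starts of the genes whose levels the results turn on: Ubd, which was lower in all 4 groups of lines, B2m, which was higher in Ras, and Psmb8, Psmb9 and Tap1, which stood high on 1 Ras array. Each is written 5′ to 3′ on the strand of the gene. Capitals mark matches, on either strand, to 4 motifs: the interferon-stimulated response element (GAAA, any 2 bases, GAAA), the gamma-activated site (TTC, any 3 bases, GAA), the kB site (GGG, any 2 bases, TT, any base, CC) and the box CCAAT. Psmb9 and Tap1 lie head to head, and the whole stretch of 225 bases between their starts is given on the strand of Tap1.

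Ubd, chr17:37193642-37193891, + strand: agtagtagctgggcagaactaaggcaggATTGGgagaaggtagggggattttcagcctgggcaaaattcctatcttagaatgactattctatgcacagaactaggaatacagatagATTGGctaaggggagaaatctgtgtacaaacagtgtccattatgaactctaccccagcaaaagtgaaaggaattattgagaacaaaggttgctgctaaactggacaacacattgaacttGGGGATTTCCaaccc

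B2m, chr2:122147437-122147686, + strand: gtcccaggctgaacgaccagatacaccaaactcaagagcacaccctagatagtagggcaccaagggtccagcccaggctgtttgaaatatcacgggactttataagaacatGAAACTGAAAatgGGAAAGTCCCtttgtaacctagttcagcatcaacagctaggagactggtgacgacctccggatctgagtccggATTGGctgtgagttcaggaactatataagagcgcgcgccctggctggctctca

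Psmb8, chr17:34197945-34198194, + strand: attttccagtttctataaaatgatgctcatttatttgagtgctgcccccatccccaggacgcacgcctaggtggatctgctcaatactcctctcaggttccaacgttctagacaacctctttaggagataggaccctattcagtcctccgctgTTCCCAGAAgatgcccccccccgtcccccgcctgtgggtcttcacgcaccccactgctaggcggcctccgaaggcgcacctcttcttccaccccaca

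Psmb9 to Tap1, chr17:34187331-34187555, + strand: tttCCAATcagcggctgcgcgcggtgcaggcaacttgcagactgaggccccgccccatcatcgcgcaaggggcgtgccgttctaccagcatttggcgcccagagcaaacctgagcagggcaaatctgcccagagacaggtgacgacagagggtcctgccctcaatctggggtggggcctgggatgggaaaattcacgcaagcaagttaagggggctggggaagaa

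A window of 250 bases before the start was available for 8 of the 9 members. The response element was found in 1 of the 8, B2m, from 139 to 130 bases before the start, against 2.98% of 32851 promoters. The gamma-activated site was found in 1, Psmb8, from 97 to 89 bases before the start, against 7.02% of promoters. A kB site was found in Ubd, from 15 to 6 bases before the start, and in B2m, from 126 to 117, against 4.11% of promoters. The CCAAT box was found in 5 of the 8 and in 33.8% of promoters. The matches of Tap1 and Psmb9 are the same box, counted for both genes because their windows overlap. The motifs were searched separately, and none of the matches in the printed sequences overlap. These are matches of letters only, and the arrays measured no binding.

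Array medians lay between 6.19 and 6.32 on the log2 scale, and the median of all gene values was 6.47. The pairs of Myc, NeuT and Src arrays correlated at 0.994 to 0.996 over all genes, those of Ras at 0.98 to 0.987 and those of control at 0.955 to 0.997. Control array 3 stood apart by markers of kidney tubule: 9 of 10 were at least 2-fold above the mean of control arrays 1 and 2, as were 5 of 10 endothelial markers. Ras array 3 stood apart by interferon-stimulated genes, which is described with the members below, and results against control that change without it are given both ways. The mean level of 10 luminal epithelial markers was 9.84 to 9.94 in control, 8.65 to 9.07 in Myc, NeuT and Src, and 5.84 to 6.60 in Ras. For 10 basal markers it was 9.05 to 9.48 in control and 9.27 to 9.46 in Src. It was lower in Myc (7.8 to 7.96), NeuT (7.44 to 7.53) and Ras (6.83 to 7.02). The epithelial label was thus borne out least by the Ras arrays. Leukocyte markers, which matter because leukocytes express these genes strongly, had a mean level of 5.53 to 5.72 on all 15 arrays, and 11 of 14 had a group mean under 6.47 in each of the 5 groups. In bulk RNA, fewer cells of a type and less RNA per cell cannot be told apart.

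Among the members, Ubd fell the most in the lines, and it fell in all 4 oncogene groups. Psmb8 was also lower in the lines apart from Ras array 3. The other members changed by oncogene: Erap1 fell in NeuT, B2m rose in Ras and fell in NeuT, and Psmb10 rose in Myc and Src. Tap1 and Tap2 passed the test against control in none of the 4 groups. A gene was called when its adjusted p was under 0.05, with no fold minimum. With the 4 groups of lines averaged, 2 of the 9 members were called, Ubd and Psmb8, and both were lower than in control. Over all genes 28.7% were called in that comparison, so the number of members called was near the background. In Myc 3 members were called (28.6% of all genes), in NeuT 4 (26.8%), in Ras 2 (27.4%) and in Src 2 (26.4%). The median log2 change over the 9 members was -0.07 in Myc, -0.41 in NeuT, -0.15 in Ras and -0.04 in Src, and over all genes it was 0.02 to 0.06. All 4 comparisons share the same 3 control arrays. Counting members whose arrays did not overlap the controls, 2 lay above and 3 below in Myc, 0 above and 6 below in NeuT, 1 above and 2 below in Ras, and 2 above and 3 below in Src. Over all genes, 23.6% lay above and 18% below in Myc, 23.4% and 17% in NeuT, 18.9% and 17.5% in Ras, and 26.3% and 17.6% in Src. The 6 members below every control in NeuT were Ubd, Psmb8, Psmb9, Erap1, Tapbp and B2m.

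**Figure D1:**
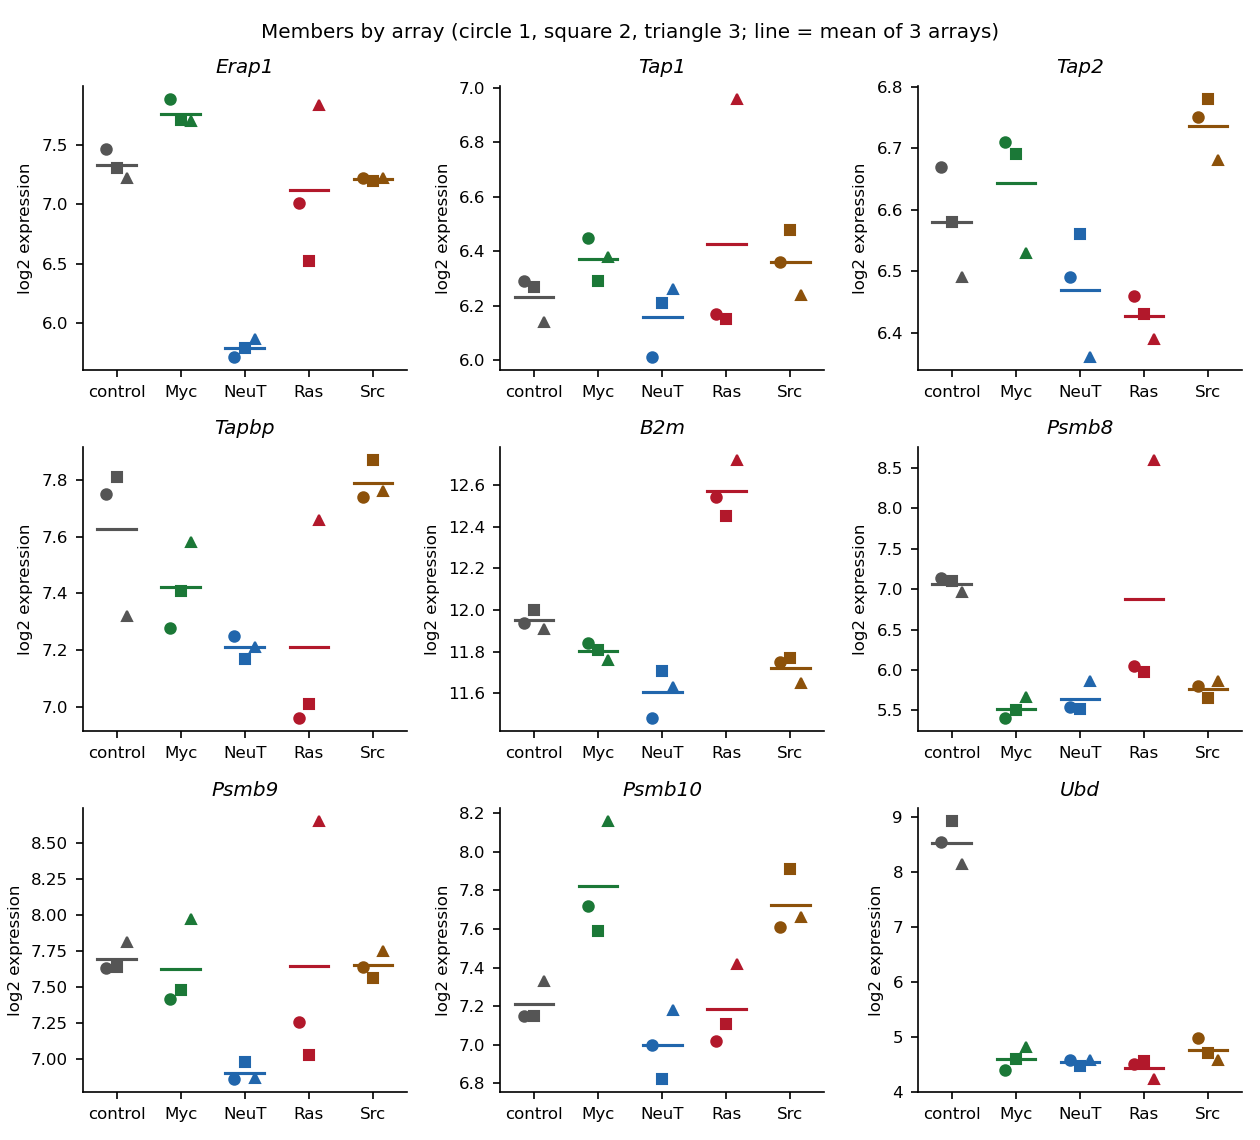
Log2 level (vertical axis) of each of the 9 members on each of the 15 arrays, with a panel for each gene and the 5 groups along the horizontal axis. Circles, squares and triangles are replicates 1, 2 and 3 and bars are group means. Ubd is at 8.13 to 8.92 in control and at 4.23 to 4.99 in the lines, and the Ras triangle stands above the other Ras points in Psmb8, Psmb9, Erap1, Tap1 and Tapbp.

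Ubd had log2 levels of 8.53, 8.92 and 8.13 on the 3 control arrays. The Myc arrays were at 4.40, 4.61 and 4.82, the NeuT arrays at 4.58, 4.47 and 4.59, the Ras arrays at 4.52, 4.56 and 4.23, and the Src arrays at 4.99, 4.71 and 4.58. Every line array was thus more than 3 log2 units below the lowest control, and no group of lines overlapped control. Of all genes, 4.9% had all 12 line arrays below all 3 controls, as Ubd alone of the members did, and 5.44% had them above, as 0 members did. The group means were 8.53 ± 0.40 (SD, n = 3) in control and 4.59 ± 0.19 (SD, n = 12) over the lines. The difference was -3.94 ± 0.14 (log2, SE), which is 15.3-fold, with an adjusted p of 1.96e-10. By oncogene it was 15.1-fold in Myc, 15.8-fold in NeuT, 17-fold in Ras and 13.6-fold in Src, with adjusted p from 4.96e-10 to 3.97e-09. None of the 6 pairs of oncogene groups differed in Ubd at the threshold, and the F test among the 4 groups gave an adjusted p of 0.458. Removing Ras array 3 left the difference at -3.91 ± 0.14. Control array 3, with its kidney markers, was the lowest control for Ubd, by 0.60 against the mean of the other controls. The line values were all below the median gene value, a range where a log2 array scale is compressed, so the fold is less sure than the direction.

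The other genes of the FAT10 system showed no common direction. Of 4 measured genes that activate, conjugate or bind FAT10, 1 rose and 0 fell in the mean of the lines, with 1 up and 1 down in Myc, 3 up and 0 down in NeuT, 0 up and 1 down in Ras and neither in Src. For this and the later lists, 28.7% of all genes were called either way in the mean of the lines. The share was 26.4% to 28.6% in single groups. Without Ras array 3 these shares were 30.2% and 25.9% to 29.8%. Uba6, the enzyme that activates FAT10, rose by 0.44 ± 0.12 in Myc (adjusted p = 0.0134) and by 0.60 ± 0.12 in NeuT (adjusted p = 0.0018). Ube2z, which takes FAT10 from Uba6 and passes it on, fell by 0.40 ± 0.07 in Ras (adjusted p = 0.000895). Hdac6 and Sqstm1, which bind FAT10-tagged proteins, rose in NeuT, by 0.60 ± 0.10 (adjusted p = 0.000397) and 0.63 ± 0.12 (adjusted p = 0.00099). Sqstm1 fell in Myc by 0.44 ± 0.12 (adjusted p = 0.0126).

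The inducible proteasome subunits differed from each other. Psmb8, the subunit that replaces Psmb5, had control values of 7.14, 7.10 and 6.96. It was at 5.40, 5.50 and 5.67 in Myc, at 5.54, 5.52 and 5.87 in NeuT and at 5.80, 5.65 and 5.86 in Src, so none of these groups reached the controls. The Ras arrays were at 6.05, 5.97 and 8.60: the first and second lay below every control and the third above every control. Apart from Ras array 3, the line values of Psmb8 were below the median gene value. Their fold is therefore less sure than the direction. Over all arrays Psmb8 fell by 1.11 ± 0.38 in the mean of the lines (adjusted p = 0.0396), by 1.54 ± 0.48 in Myc (adjusted p = 0.0251) and by 1.42 ± 0.48 in NeuT (adjusted p = 0.0398). The differences of -1.30 in Src (adjusted p = 0.0599) and -0.19 in Ras (adjusted p = 0.818) missed the threshold. Without Ras array 3 the SE of an oncogene contrast went from 0.48 to 0.11 and Psmb8 was called in all 4 groups, at -1.54 in Myc (adjusted p = 2.98e-07), -1.42 in NeuT (6.26e-07), -1.05 ± 0.12 in Ras (2.1e-05) and -1.30 in Src (1.84e-06). With Ras array 3 kept, the call for the mean of the lines was lost when any of 10 other arrays was left out, namely the 3 controls, Myc 1 and 2, NeuT 1 and 2 or the 3 Src arrays, with adjusted p from 0.0535 to 0.109. The Myc call was lost without control 1 or 2 or any Myc array (0.0503 to 0.0736), and the NeuT call without any of the 12 arrays outside Ras (0.0506 to 0.107).

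Psmb9, which replaces Psmb6, was at 7.63, 7.64 and 7.81 in control and at 6.86, 6.98 and 6.87 in NeuT, with no overlap. The Myc arrays (7.42, 7.48 and 7.97) and the Src arrays (7.64, 7.56 and 7.75) overlapped the controls. The Ras arrays were at 7.26, 7.03 and 8.65, again with the third apart from the others. Over all arrays the NeuT difference of -0.79 ± 0.30 missed the threshold (adjusted p = 0.0672), and without Ras array 3 it passed (adjusted p = 0.00042). The Ras difference without that array was -0.55 ± 0.14 (adjusted p = 0.0129). Psmb10, which replaces Psmb7, moved the other way in part of the lines. It was at 7.15, 7.15 and 7.33 in control, at 7.72, 7.59 and 8.16 in Myc and at 7.61, 7.91 and 7.66 in Src, so both groups lay above every control. The increases were 0.62 ± 0.15 in Myc (adjusted p = 0.00616) and 0.51 ± 0.15 in Src (adjusted p = 0.0216). The Src call was lost without control 1, control 2 or Src 2, with adjusted p from 0.0615 to 0.0937. In NeuT (7.0, 6.82 and 7.18) and Ras (7.02, 7.11 and 7.42) Psmb10 overlapped control and was not called.

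The constitutive counterparts stayed closer to control than Psmb8 did in Myc, NeuT and Src. Psmb5 fell by 0.56 ± 0.10 in Src (adjusted p = 0.00111) and was not called in the other groups, where the differences were -0.17 to -0.29. Psmb6 rose by 0.33 ± 0.11 in Myc (adjusted p = 0.0359) and by 0.39 ± 0.11 in NeuT (adjusted p = 0.0147). Psmb7 differed by 0.14 to 0.16 and was called in none. Over the 14 measured genes of the constitutive core, 4 rose and 1 fell in Myc, 1 rose and 1 fell in NeuT, 3 rose and 0 fell in Ras, and 1 rose and 2 fell in Src. The numbers in Ras were 1 and 1 without array 3, and 2 rose and 1 fell in NeuT in that fit. Proteasome activator and assembly genes moved both ways. Of 9, 5 rose and 1 fell in Myc, 2 rose and 3 fell in NeuT, 2 rose and 3 fell in Ras, and 3 rose and 3 fell in Src. In the fit without Ras array 3, 2 fell in Myc and 1 rose in Ras. The assembly chaperones Psmg1, Psmg2 and Psmg4 rose in Myc, by 1.00 ± 0.08, 0.99 ± 0.10 and 1.25 ± 0.17 (adjusted p from 3.76e-07 to 6.56e-05), and Psmg2 rose in all 4 groups, by 1.21 ± 0.10 in Ras (adjusted p = 4.33e-07). Psme3, the subunit of a nuclear activator, rose in Myc by 0.99 ± 0.11 (adjusted p = 9.34e-06) and in NeuT by 0.79 ± 0.11 (adjusted p = 8.03e-05). In Ras it rose by 0.32 (adjusted p = 0.0437), a call lost without array 3 (adjusted p = 0.126). Psme1 and Psme2, the subunits of the interferon-inducible activator PA28, went the other way. Psme1 fell in all 4 groups, by 0.36 in Myc, 0.68 in NeuT, 0.37 in Ras and 0.50 in Src, with adjusted p from 0.00092 to 0.0439. Psme2 fell by 1.05 ± 0.18 in NeuT (adjusted p = 0.00058), by 0.67 in Ras and by 0.53 in Src (adjusted p = 0.0131 and 0.049), and differed by -0.35 in Myc, with an adjusted p of 0.192 over all arrays and 0.0369 without Ras array 3.

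**Figure D2:**
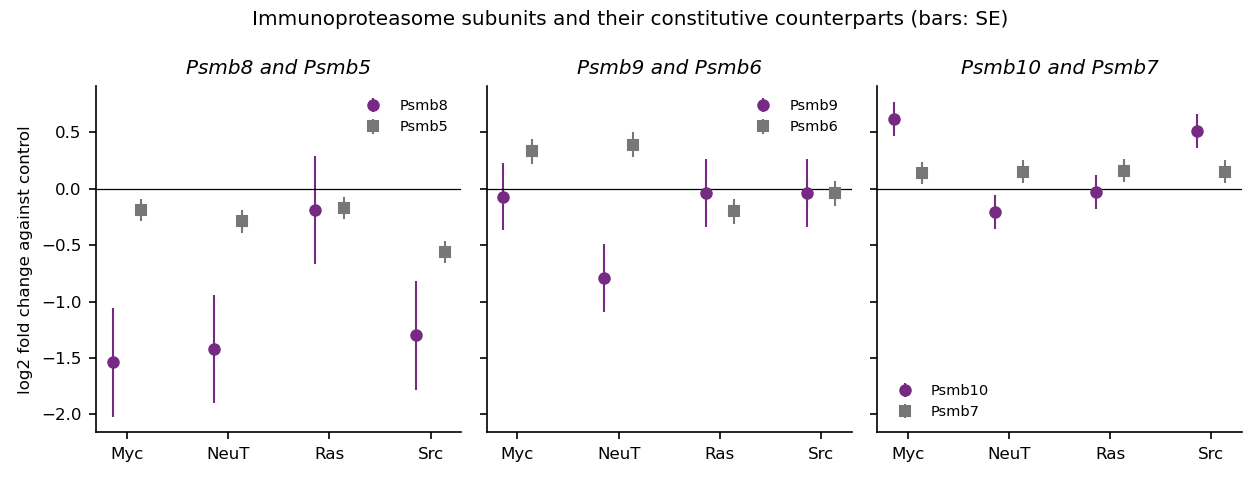
Log2 difference from control (vertical axis) of Psmb8, Psmb9 and Psmb10 and of their constitutive counterparts Psmb5, Psmb6 and Psmb7 in the 4 oncogene groups (horizontal axis), fitted over all 15 arrays, with SE as bars. Psmb8 reaches -1.54 in Myc, and the 3 constitutive subunits stay between -0.56 and 0.39.

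Of the genes that move, trim and load peptides, Erap1 showed the widest range among the lines. This aminopeptidase was at 7.47, 7.31 and 7.22 in control and at 5.71, 5.79 and 5.87 in NeuT, more than 1 log2 unit below every control. The Myc arrays, at 7.89, 7.71 and 7.70, were above every control, the Src arrays were at 7.22, 7.20 and 7.22, and the Ras arrays at 7.01, 6.52 and 7.84. Erap1 fell by 1.54 ± 0.22 in NeuT (2.91-fold, adjusted p = 0.000111) and by 1.98 ± 0.22 in NeuT against Myc (adjusted p = 3.29e-05). The difference of 0.43 in Myc passed the threshold without Ras array 3 (adjusted p = 0.0107) and missed it with the array (adjusted p = 0.178). In Ras the difference was -0.21 over all arrays and -0.57 ± 0.13 without array 3 (adjusted p = 0.00472).

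The transporter genes differed little from control. Tap1 was at 6.29, 6.27 and 6.14 in control, at 6.45, 6.29 and 6.38 in Myc, at 6.01, 6.21 and 6.26 in NeuT and at 6.36, 6.48 and 6.24 in Src. The Ras arrays were at 6.17, 6.15 and 6.96, and the third was the highest of the 15. The 4 differences from control lay between -0.07 and 0.19. Tap2 was at 6.67, 6.58 and 6.49 in control and between 6.36 and 6.78 in the lines, with the Ras arrays just below every control (6.46, 6.43 and 6.39) and the Src arrays just above (6.75, 6.78 and 6.68). Tap2 was higher in Src than in NeuT by 0.27 ± 0.08 (adjusted p = 0.0239) and than in Ras by 0.31 ± 0.08 (adjusted p = 0.00904). The control means of both genes were near the median gene value, so how far below it they could have been followed is unsure. Tapbp, the tapasin gene, was at 7.75, 7.81 and 7.32 in control and at 7.25, 7.17 and 7.21 in NeuT, below every control. It was at 7.28, 7.41 and 7.58 in Myc, at 7.74, 7.87 and 7.76 in Src and at 6.96, 7.01 and 7.66 in Ras. The differences of -0.41 in NeuT and -0.41 in Ras missed the threshold over all arrays (adjusted p = 0.0894 and 0.0844). Without Ras array 3 they were -0.41 (adjusted p = 0.0177) and -0.64 ± 0.13 (adjusted p = 0.0025). They also passed without control array 3 alone, the lowest control for Tapbp, at -0.57 in each (adjusted p = 0.0162 and 0.015). With both of these arrays left out, Tapbp was called in Myc too, at -0.35 (adjusted p = 0.00866). Tapbp was higher in Src than in NeuT by 0.58 ± 0.17 and than in Ras by the same amount (adjusted p = 0.0244 and 0.0193).

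B2m was the member that rose in Ras. It was at 11.94, 12.00 and 11.91 in control and at 12.54, 12.45 and 12.72 in Ras, so all 3 Ras arrays were above every control. It was at 11.84, 11.81 and 11.76 in Myc, at 11.48, 11.71 and 11.63 in NeuT and at 11.75, 11.77 and 11.65 in Src, all below every control. The increase in Ras was 0.62 ± 0.08 (adjusted p = 5.54e-05) and without array 3 it was 0.54 ± 0.08 (adjusted p = 0.000259). B2m fell in NeuT by 0.34 ± 0.08 (adjusted p = 0.00673). The difference in Src, -0.23, had an adjusted p of 0.0598 over all arrays and 0.0355 without Ras array 3. Beside the rise in Ras, 10 fibroblast markers had a mean level of 6.32 to 6.67 in Ras and 6.05 to 6.30 in the other groups, and the luminal and basal markers were lowest in Ras. The fibroblast markers did not move together. Dcn (8.17 in Ras, 7.04 in control) and Col3a1 (6.81 and 6.27) had their highest group mean in Ras. Pdgfra had its lowest there (6.52 and 6.97). Fbln2 was higher in Ras (7.83) than in control (6.76), but lower than in Myc, NeuT and Src. The part of these markers in the result was not tested.

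Of the 10 measured class I heavy chains, 4 rose in Ras, 1 fell and 5 were not called. In the other groups 0 rose, while 2 fell in Myc, 4 in NeuT and 1 in Src. When Ras array 3 was left out, 4 rose and 0 fell in Ras, and 3 fell in Myc, 4 in NeuT and 2 in Src. H2-M3, which presents formylated peptides, was at 7.41, 7.95 and 7.55 in Ras and 6.90 to 6.92 in control, a rise of 0.73 ± 0.11 (adjusted p = 0.000204). H2-T24 rose by 0.42 ± 0.07 in Ras (adjusted p = 0.000384) and fell by 0.28 ± 0.07 in NeuT (adjusted p = 0.00914). Mr1, which presents metabolites of vitamin B synthesis, fell by 1.91 ± 0.36 in NeuT (adjusted p = 0.000979) and by 1.36 ± 0.36 in Myc (adjusted p = 0.00996). Cd1d1, which presents lipids, fell in NeuT, Ras and Src by 0.67, 0.58 and 0.66 (adjusted p = 0.00726, 0.016 and 0.00928). The Ras call was lost without array 3, at -0.50 (adjusted p = 0.0642). The classical genes H2-K1 and H2-D1 had no probe set of their own and were not analysed here. Of 10 other peptide-loading and chaperone genes, 1 rose in each of Myc, NeuT and Src and 2 in Ras, while 1 fell in Myc, 3 in NeuT, 1 in Ras and 1 in Src. With Ras array 3 left out, 2 rose in NeuT and 0 fell in Src, and the other numbers were as before. Tapbpl, a relative of tapasin that edits peptides, fell by 0.69 ± 0.09 in Ras (adjusted p = 3.07e-05), 0.47 in NeuT and 0.35 in Myc (adjusted p = 0.000934 and 0.00662).

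Ras array 3 held higher levels of most members than the other Ras arrays, with the largest difference in Psmb8. Of the 9 members 7 were above both Ras 1 and Ras 2, against 29.9% of all genes. The same held for 8 of 9 proteasome activator and assembly genes and 11 of 14 constitutive core genes, so it did not set the members apart. By size, 3 members were at least 2-fold above the mean of Ras 1 and Ras 2, against 0.747% of all genes. The array had been singled out earlier for its interferon-stimulated genes, so these values are a description. Psmb8 was 6.02-fold higher (8.60 against 6.01), Psmb9 2.84-fold (8.65 against 7.15) and Erap1 2.1-fold (7.84 against 6.76). Tap1 was higher by 0.80, Tapbp by 0.68, Psmb10 by 0.35 and B2m by 0.23 on the log2 scale. The remaining members, Tap2 and Ubd, were lower by 0.06 and 0.31. Ubd was low on all 12 line arrays, in a range where a log2 array scale is compressed. The adjacent Psmb9, Tap1 and Psmb8 were raised and Tap2, next to them, was not. On control array 3, the other array that stood apart, 0 of the 9 members were at least 2-fold above the other controls (3.44% of all genes) or below them (0.01%).

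**Figure D3:**
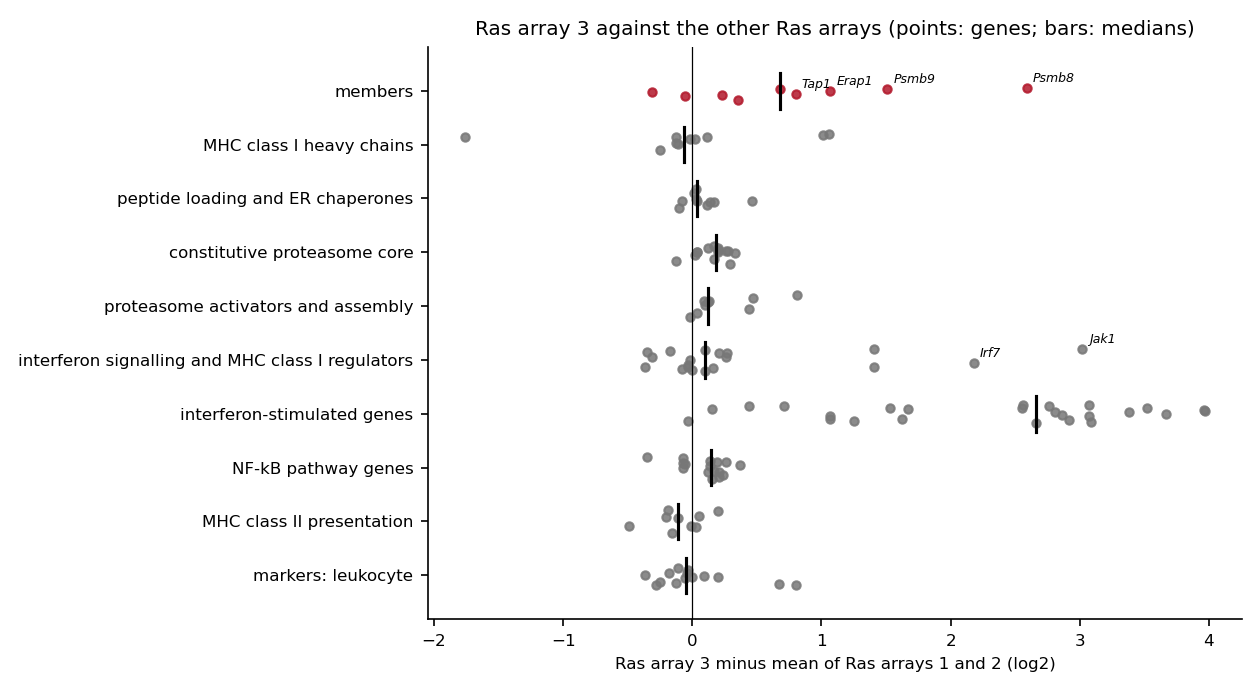
Log2 difference of Ras array 3 from the mean of Ras arrays 1 and 2 for the members and for the genes of each list, with a point for each gene. Psmb8 is the highest member at 2.59, and most interferon-stimulated genes lie above 1, whereas the constitutive core, class II and leukocyte genes do not.

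The same array was high in the wider interferon response. Of 25 measured interferon-stimulated genes 21 were at least 2-fold above Ras 1 and 2, with a median difference of 2.66, against -0.02 over all genes. Ifih1, a cytoplasmic sensor of viral RNA, was at 9.92 against 6.83, and Ddx58, the gene of the sensor RIG-I, at 10.33 against 8.66. Of 19 genes of interferon signalling and class I regulation, 4 were at least 2-fold higher: Irf9, at 7.34 against 5.92, and Jak1, Irf7 and Stat2, which are named here after their values were seen. Jak1, a kinase bound to interferon receptors, differed the most of them, at 10.29 on Ras array 3 against 7.50 and 7.06 on the others. Those 2 low Jak1 values were the ones apart, since the control arrays were at 10.15 to 10.53 and the Myc, NeuT and Src arrays at 9.24 to 9.96. Irf7 was at 8.10 against 5.92 and Stat2 at 7.75 against 6.35. Irf1 and Nlrc5, activators of class I genes, differed by 0.27 and -0.37. Of the other lists, 0 of 14 constitutive core genes, 0 of 9 class II genes and 0 of 14 leukocyte markers were at least 2-fold higher, and 2 of 10 heavy chains were. The latter, H2-T10 (10.22 against 9.15) and H2-Q4 (6.25 against 5.24), are named after their values were seen. Mr1 was lower, at 5.87 against 7.63.

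Without Ras array 3 more members were called in every comparison with control. In Ras 6 of the 9 were called (25.9% of all genes), with 5 lower and B2m higher, in NeuT 6 (27.5%), in Myc 4 (29.8%) and in Src 4 (28.2%). For the mean of the lines 5 were called (30.2% of all genes), all lower: Ubd, Psmb8 by 1.33 ± 0.08 (adjusted p = 1.44e-07), Erap1 by 0.45 ± 0.09 (0.00205), Psmb9 by 0.36 ± 0.10 (0.0174) and Tapbp by 0.27 ± 0.09 (0.0443). With control array 3 left out too, Psmb9 was not called in that mean, at -0.30 (adjusted p = 0.0705). The members gained without Ras array 3 were among those it held high, and their SE was smaller without it. Over all arrays and without Ras array 3, Tap1 and Tap2 were not called against control.

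**Figure D4:**
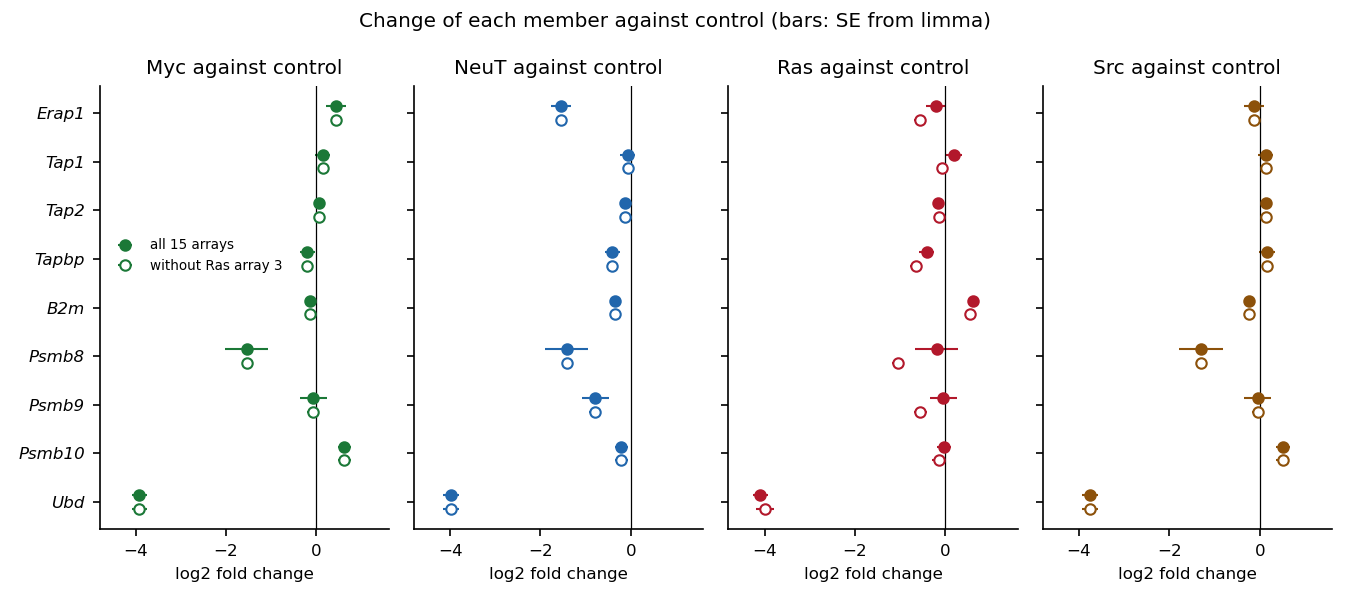
Log2 difference from control (horizontal axis) of the 9 members (vertical axis) in each of the 4 oncogene groups, with SE as bars. Filled symbols are fitted over all 15 arrays and open symbols without Ras array 3. In the Ras panel Psmb8 moves from -0.19 to -1.05, and Ubd stays near -4 in all panels.

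Differences among the 4 groups of lines, which were grown in the same medium, were tested with an F test. It called 5 of the 9 members (42.1% of all genes), namely B2m, Erap1, Psmb10, Tap2 and Tapbp, and without Ras array 3 it also called Psmb8 and Psmb9 (40.8% of all genes). The members Ubd and Tap1 were called in neither. By pairs, 2 members differed between NeuT and Myc (14.9% of all genes), 4 between Ras and Myc (28.4%), 2 between Ras and NeuT (28.1%), 4 between Src and NeuT (20.2%) and 4 between Src and Ras (26.2%). Between Src and Myc limma called 0 (18.9% of all genes), with 2 at an unadjusted p under 0.05. B2m was higher in Ras than in Myc, NeuT and Src by 0.77, 0.96 and 0.85, each ± 0.08 (adjusted p from 1.03e-06 to 8.56e-06). Psmb10 was higher in Myc than in NeuT by 0.83 and than in Ras by 0.64 (each ± 0.15, adjusted p = 0.00172 and 0.00479). Psmb10 was also higher in Src than in NeuT by 0.72 (adjusted p = 0.00327) and than in Ras by 0.54 (adjusted p = 0.0162).

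In the order of group means, neighbours differed at the threshold in few places. Erap1 ran from Myc (7.77) through control, Src and Ras to NeuT (5.79), and only Ras and NeuT, at the low end, differed as neighbours (adjusted p = 0.000365). B2m ran from Ras (12.57) through control, Myc and Src to NeuT (11.61), and only Ras and control did. Psmb10 ran from Myc (7.83) and Src (7.72) through control and Ras to NeuT (7.0), and only Src and control did. Ubd ran from control (8.53) to Src, Myc, NeuT and Ras (4.43), and only control and Src did. For Tap1, Tap2, Tapbp, Psmb8 and Psmb9 no neighbours differed at the threshold over all arrays. Without Ras array 3, control and Ras differed as neighbours in Psmb8 (7.07 and 6.01, adjusted p = 2.1e-05), and Myc and Ras in Psmb9 (7.62 and 7.15, adjusted p = 0.0263). In Erap1, Myc and control (adjusted p = 0.0107) and Src and Ras (adjusted p = 0.0219) then differed too.

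Both chains of the interferon gamma receptor fell in each group of lines. Of 19 genes of interferon signalling and class I regulation, 1 rose and 5 fell in the mean of the lines, with 3 fallen in Myc, 6 in NeuT, 8 in Ras and 5 in Src. Without Ras array 3, 1 rose and 9 fell in the mean of the lines, with 6 fallen in Myc, 7 in NeuT, 10 in Ras and 8 in Src. Over all genes 28.7% were called in that mean over all arrays, near the share of this list, and 30.2% without Ras array 3. Ifngr1, the ligand-binding chain of the interferon gamma receptor, was at 10.06, 10.21 and 9.52 in control and at 7.96 to 8.86 in the lines. It fell by 1.43 ± 0.13 in their mean (adjusted p = 1.08e-06) and in each group, by 1.76 in Myc, 1.44 in NeuT, 1.43 in Ras and 1.1 in Src (adjusted p from 1.68e-06 to 0.000165). Ifngr2, the signalling chain, fell by 1.00 ± 0.10 (adjusted p = 3.04e-06) and in each group. Jak2, a kinase of the same receptor, fell by 1.03 in Myc, 1.17 in NeuT and 0.60 in Src (adjusted p = 2.34e-05, 8.52e-06 and 0.00288) and was not called in Ras. Irf1 fell by 0.48 ± 0.14 in NeuT and in Ras (adjusted p = 0.02 and 0.0178). Socs1, an inhibitor of this signalling, rose in Src by 0.50 ± 0.10 (adjusted p = 0.00184) and in Myc by 0.33 ± 0.10 (adjusted p = 0.021). Rfxank, part of the complex that binds MHC promoters, fell in Ras by 0.48 ± 0.08 (adjusted p = 0.000254). Nlrc5 was called in no comparison with control. Irf9 was not called over all arrays, and without Ras array 3 it was lower in Myc by 0.59 (adjusted p = 0.000317), in Ras by 0.53 (0.00216) and in Src by 0.42 (0.00495).

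Of the 25 interferon-stimulated genes, 1 rose and 4 fell in the mean of the lines over all arrays, and without Ras array 3, 1 rose and 16 fell. By group without that array, 15 fell in Myc, 12 in NeuT, 8 in Ras and 14 in Src, and over all arrays 5, 3, 0 and 4 did. In Ras 2 of these genes rose over all arrays and 1 without array 3. Ras array 3 had been singled out by these same genes, so the larger counts without it are a description. In Myc, NeuT and Src the differences from control were the same in both fits, and only the SE changed. Ifih1 in NeuT, for example, differed by -1.38 in both (limma adjusted p = 0.0928 and 4.55e-07). Ifit2, an antiviral RNA-binding protein, was at 7.61 to 7.80 in control and at 5.07, 5.22 and 5.20 in Myc, and it fell by 2.54 in Myc. On the Ras arrays it was at 8.46, 8.30 and 8.82, above every control, and it rose by 0.83 ± 0.11 (adjusted p = 5.23e-05). Of 16 genes of the NF-kB pathway, which also induces Ubd, 2 rose and 5 fell in the mean of the lines. Birc3, an inhibitor of cell death and an NF-kB target, fell by 1.59 ± 0.13 (adjusted p = 5.31e-07) and in each of the 4 groups. Tnfrsf1a rose by 0.40 in the mean of the lines (adjusted p = 0.000716), and Ikbke rose by 0.83 in Src (adjusted p = 0.000148). Tnfaip3 differed by 0.66 in NeuT and by -1.25 in Ras (adjusted p = 0.0083 and 5.44e-05). Of 9 genes of class II presentation, 0 rose and 2 fell in the mean of the lines, and without Ras array 3, 1 rose and 2 fell. These lists describe the pathway around the members, and no list was tested as a set.

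The genes whose levels ran most like those of Ubd over the 15 arrays were Rarb, a retinoic acid receptor (Pearson r 0.997), Wnk3, a kinase (0.993), Slc28a3, a nucleoside transporter (0.992), Scel, a protein of the cornified envelope (0.99), and Myo5c, an unconventional myosin (0.99). All 5 were high in the 3 controls and low in the 12 line arrays. Over the line arrays alone the correlations were 0.828, 0.275, 0.329, -0.103 and 0.627. For Wnk3, Slc28a3 and Scel the likeness thus rests mainly on the step between control and lines. Rarb and Myo5c also ran with Ubd among the lines, over a narrow range of low values. Rarb, for example, was at 7.92, 7.91 and 7.55 in control and at 5.30 to 5.68 in the lines. The genes most like Tap1 were Mitd1 (0.866), Oas1b (0.857), Vmn2r70 (0.853), Oas2 (0.85) and Oasl1 (0.825), and all 5 had their highest value on Ras array 3. Over the 14 arrays without it their correlations with Tap1 were 0.319 to 0.637. Oas1b, Oas2 and Oasl1 belong to the interferon-induced oligoadenylate synthetase family. The genes most like B2m were Aebp1 (0.968), Mir350 (0.965), Trim12a (0.963), Fnbp1 (0.96) and Nid1 (0.959), which were highest on the 3 Ras arrays. Vmn2r70, at 3.48 to 4.48, and Trim12a, at 4.16 to 4.87, were below the median gene value on every array. Their likeness is less sure for that reason. Psmb8 and Ubd correlated at 0.47 over 15 arrays and at 0.95 over the 14 without Ras array 3. The arrays share their groups, so these correlations describe the step between groups as much as any relation within them.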

How the data were processed

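Trizol-extracted RNA was amplified by WT-Ovation Pico and labelled with biotin, per the labels. The authors deposited normalized log2 values. The submitters' processing notes list RMA and Affymetrix Expression Console 1.1 without saying what each did. The genome build is not given in the sources used here. An array has no read depth, so the number of arrays limits the precision.

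Of 35556 probe sets, 21789 named 1 gene, 1621 several and 12146 none. Those naming 1 gene were used, the brightest by mean where a gene had several, which gave 19938 genes. Entrez identifiers matched 21698 of them to RefSeq, and 0 symbols changed. Dim genes were kept.

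A model of 5 group means was fitted to all genes and all 15 arrays with limma 3.58.1 (lmFit, eBayes) in R 4.3.3, and was tested on simulated data. Control was compared with each oncogene and with the average of all 4, the oncogenes were compared in 6 pairs, and an F test covered the 4 groups. Tests are two-sided, Benjamini-Hochberg adjustment runs over all genes, and calls are at an adjusted p under 0.05. Errors of differences are SE and those of levels SD. Plots were made with matplotlib 3.10.9 in Python 3.11.15, and tables with numpy 2.4.6 and pandas 2.3.3.

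The members, lists and alternatives were chosen with earlier results of these data known. Named genes were the members, Psmb5, Psmb6, Psmb7, Psme1, Psme2, Irf1, Irf9, Nlrc5, Socs1, the 4 genes of each list with the smallest adjusted p against control, and the 5 genes most correlated with Ubd, Tap1 and B2m. The alternatives were median centring, quantile normalization, a filter that drops dim genes (mean under the median gene), averaging probe sets, a trended robust variance, array weights, only the groups compared, a replicate block, leaving out arrays and a fold minimum of 2. With 1 probe set per member, averaging left the member values as they were, and probe sets were not tested separately. Through the other genes it still brought 1 further member comparison under the threshold.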

Additional observations from a re-analysis of the deposited data

Results flagged for a closer look

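The levels of 5 members differed among the 4 groups of lines, by the F test in limma with Benjamini-Hochberg adjustment over all genes. The adjusted p was 1.83e-06 for B2m, whose group means ran from 11.61 in NeuT to 12.57 in Ras, and 4e-05 for Erap1, from 5.79 in NeuT to 7.77 in Myc. It was 0.000839 for Psmb10, from 7.0 in NeuT to 7.83 in Myc. It was 0.0126 for Tap2, from 6.43 in Ras to 6.74 in Src, and 0.0309 for Tapbp, from 7.21 in NeuT and Ras to 7.79 in Src. For Psmb8 and Psmb9 it was 0.0987 and 0.124 over all arrays, and 0.0232 and 0.000844 without Ras array 3.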

How the results depend on the processing

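Ubd was called lower than control in each of the 5 comparisons under all 23 alternatives that kept the gene. Erap1 in NeuT and B2m in NeuT and Ras were called under all 24. Over 2343 recomputed member values, 2168 stayed on the same side of the threshold, 85 were no longer called, 88 became called and 2 reversed. The 2 are Psmb9 in Ras against Myc, 0.03 over all arrays and -0.48 both without Ras array 3 (adjusted p = 0.0263) and without it and control array 3 (adjusted p = 0.0161). Leaving out 1 array at a time put that difference between -0.48 and 0.33. Of the 2168, 60 changed sign without being called either way.

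The number of members called for the mean of the lines was 2. It was 0 without dim genes, a filter that removes Ubd, Psmb8 and Tap1, 1 with a trended robust variance, 4 with array weights and 4 without Ras array 3 and control array 3. For Myc the number was 3, with 1, 5 and 5 under the dim filter, array weights and both arrays left out. For Ras it was 2, with 1 under the filter, 6 without both arrays and 1 at a fold minimum of 2. For Src it was 2, with 1, 4, 4 and 1 under the filter, array weights, both arrays left out and the fold minimum. For NeuT against Myc (2) and Ras against NeuT (2) the fold minimum gave 1. For Ras against Myc (4), median centring, quantile normalization and only the groups compared each gave 2 and the fold minimum 1. For Src against Myc (0), array weights, only the groups compared and both arrays left out each gave 2. Median centring gave 2 for Src against NeuT (4), 2 for Src against Ras (4) and 3 for the F test (5), and the fold minimum gave 1, 0 and 1. The causes were not tested beyond what the filters remove by construction.

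Leaving out 1 array at a time gave 1 to 5 for the mean of the lines, 2 to 4 for Myc, 3 to 6 for NeuT, 2 to 6 for Ras and 1 to 4 for Src. Without control array 3 the numbers were 1, 3, 4, 3 and 2. For the pairs it gave 2 to 3 for NeuT against Myc, 2 to 6 for Ras against Myc, 0 to 2 for Src against Myc, 2 to 4 for Ras against NeuT, 2 to 5 for Src against NeuT and 2 to 6 for Src against Ras, and 4 to 7 for the F test. Calls lost this way beyond those of Psmb8 and Psmb10 were Erap1 and Psmb8 in Ras against Myc, Tap2 and Tapbp in Src against NeuT, Tapbp in Src against Ras and Psmb10 in Src against Ras.

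Same-numbered replicates showed correlations of -0.08 to 0.12 between groups, with 2 of 30 over 0.1. However, 11 of 15 arrays correlated best with their own number, so whether the numbers pair the samples cannot be told. With the replicate number as a block, 2 members were called for the mean of the lines, 3 in Myc, 5 in NeuT, 2 in Ras and 3 in Src, and 5 by the F test.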
